A study of Mus musculus with 12 samples.

Results

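Nkx2-5 is a homeodomain transcription factor of heart muscle that works on shared promoters and enhancers with GATA zinc finger factors, T-box factors and MEF2 proteins. This core set switches on the genes of contraction, conduction and natriuretic peptides, and it is known for members that bind to one another and regulate one another's genes. In the ventricle, trabeculae are the muscular ridges of the inner wall that later give rise to the Purkinje fibres of the conduction system, and loss of Nkx2-5 is known to disturb both. The 10 genes followed here are Nkx2-5, Gata4, Gata6, Tbx5, Tbx20, Mef2a, Mef2c, Hand2, Irx4 and Hopx, out of 18021 gene names with a measurable probe. Probes were taken by gene symbol, and the list of 10 was drawn up with earlier results of these data known.

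The tissue was the wall of the left ventricle with its apex, the septum being left out, from mice aged 6 months. Each of 12 Agilent arrays in a single colour held RNA of 1 mouse, and each group had 4. The mutants carried floxed Nkx2-5-ΔNeo alleles together with Cx40-creERT2, a tamoxifen-dependent Cre driven from the locus of Gja5 (connexin 40). This Cre is active in embryonic trabecular muscle and not in the whole embryonic wall. Tamoxifen was given to the pregnant mother at E10.5 and E11.5 for the Nkx2-5ΔTrbE10 group (TrbE10). For the Nkx2-5ΔTrbE14 group (TrbE14) tamoxifen came later, at E13.5 and E14.5. In the study's lineage tracing, early induction marked muscle cells in all of the left ventricle, the compact zone among them. Later induction marked cells only in the inner part of its wall. Controls were littermates with the floxed alleles and without Cre according to the study's methods, while the sample labels describe them as not injected. Littermates would share the mother's tamoxifen, so the sources differ on this exposure. An effect of tamoxifen and an effect of the Cre allele therefore cannot be told apart from that of the deletion. Pups were delivered by caesarean section and raised by CD1 foster mothers. Y-linked probes gave signal in 1 of the 4 control hearts, in 2 TrbE10 and in 3 TrbE14 hearts. One slide carried the controls together with TrbE14 and another carried TrbE10, so a slide effect and the TrbE10 genotype cannot be told apart, whereas TrbE14 against control was a comparison within 1 slide. Between 22885 and 26149 probes per array were well above background. The 8 cardiomyocyte markers were measured in all groups, with summed signals of 816057 to 876650 in the control hearts, against 838260 to 892708 (TrbE10) and 787378 to 854236 (TrbE14). The brightest, Myl3 and Myh6, weigh most in these sums, with mean log2 signals of 18.26 and 17.92 in control hearts. Myl3 read 18.32 with an SD of 0 in TrbE10 hearts, because normalization by quantiles gives equal ranks the same value. The sums are therefore a weak measure of heart muscle content. Gene by gene, 6 of the 8 were lower than control and 2 higher in each mutant. Their median log2 difference was -0.12 (TrbE10) and -0.04 (TrbE14). Ryr2 in TrbE10 hearts was lowest (-0.41), and 0 of 8 had a limma adjusted p under 0.05 in either mutant. Their part in the Nkx2-5 and Hopx differences was not tested.

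The 10 genes were read by 15 probes, and 14 of these probes passed the filter on background. Tbx20 and Mef2a had 3 probes, Hopx had 2, and the other 7 genes had 1 each. The Nkx2-5 probe lies at chr17:26975621-26975680 on the minus strand of mm9, the build to which the array's coordinates refer. The position of the loxP sites was not given in the sources used here, so whether this probe lies inside the deleted part is not known. The 3 Tbx20 probes lie on the minus strand at chr9:24563177-24563236 (5′ probe), chr9:24544715-24544774 (middle probe) and chr9:24527750-24527809 (3′ probe). The array's annotation lists the 5′ and middle probes for transcript variants 2 and 3 of Tbx20, and the 3′ probe for variant 1. The 2 Hopx probes lie at chr5:77516460-77516519 and chr5:77516624-77516683 on the minus strand. The single probes of Gata4 (chr14:63817858-63817917, minus strand), Tbx5 (chr5:120334087-120334146), Hand2 (chr8:59803220-59803279) and Irx4 (chr13:73406712-73406771, the last 3 on the plus strand) are placed on the same build. The sequence of the 5′ probe of Tbx20 is shown because it is the probe whose difference from control passed the test in both mutants. It holds no stop codon in any of its 3 reading frames, whereas the middle probe has stops in all of them:
Tbx20 5′ probe: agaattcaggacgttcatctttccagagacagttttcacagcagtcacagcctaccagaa

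In the hearts of mice that had lost Nkx2-5 in trabecular muscle, Nkx2-5 and Hopx signals were lower than in every control heart. Tbx20 signals were higher on its 5′ and middle probes, those of variants 2 and 3. The middle probe met the background filter through the mutant groups alone. The 3′ probe, the brightest and the one by which Tbx20 was read, did not pass in either mutant (limma adjusted p = 0.121 and 0.311). Hopx did not pass the test in either mutant, and Nkx2-5 passed in TrbE10 hearts only. None of the other 7 factors passed, with log2 differences from -0.71 (Hand2) to 0.23 (Irx4). By the brightest probe of each gene, 1 of the 10 members, Nkx2-5, passed an adjusted p under 0.05 in TrbE10 hearts against control, beside 1.93% of all 18021 genes. In TrbE14 hearts 0 of 10 passed, beside 0.66% of all genes, and 3 of 10 had an unadjusted limma p under 0.05, beside 13.9% of all genes. The same count in TrbE10 hearts was 3 of 10, beside 16.8% of all genes. Counting any probe of a gene, 2 members (Nkx2-5 and Tbx20) passed in TrbE10 hearts, beside 2.15% of genes, and 1 member (Tbx20) in TrbE14 hearts, beside 0.76%. The median log2 difference of the 10 members was -0.09 in TrbE10 and -0.02 in TrbE14 hearts, against -0.02 and -0.03 over all genes. The groups did not overlap for 3 members in each mutant, Nkx2-5, Tbx20 and Hopx in TrbE10 hearts (10.6% of all genes) and Nkx2-5, Gata4 and Hopx in TrbE14 hearts (10.1% of all genes). Both mutants were set against the same 4 control hearts, so their values stand side by side and are not independent of each other. In bulk RNA, fewer cells that express a gene and less of its RNA per cell cannot be told apart.

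**Figure D1:**
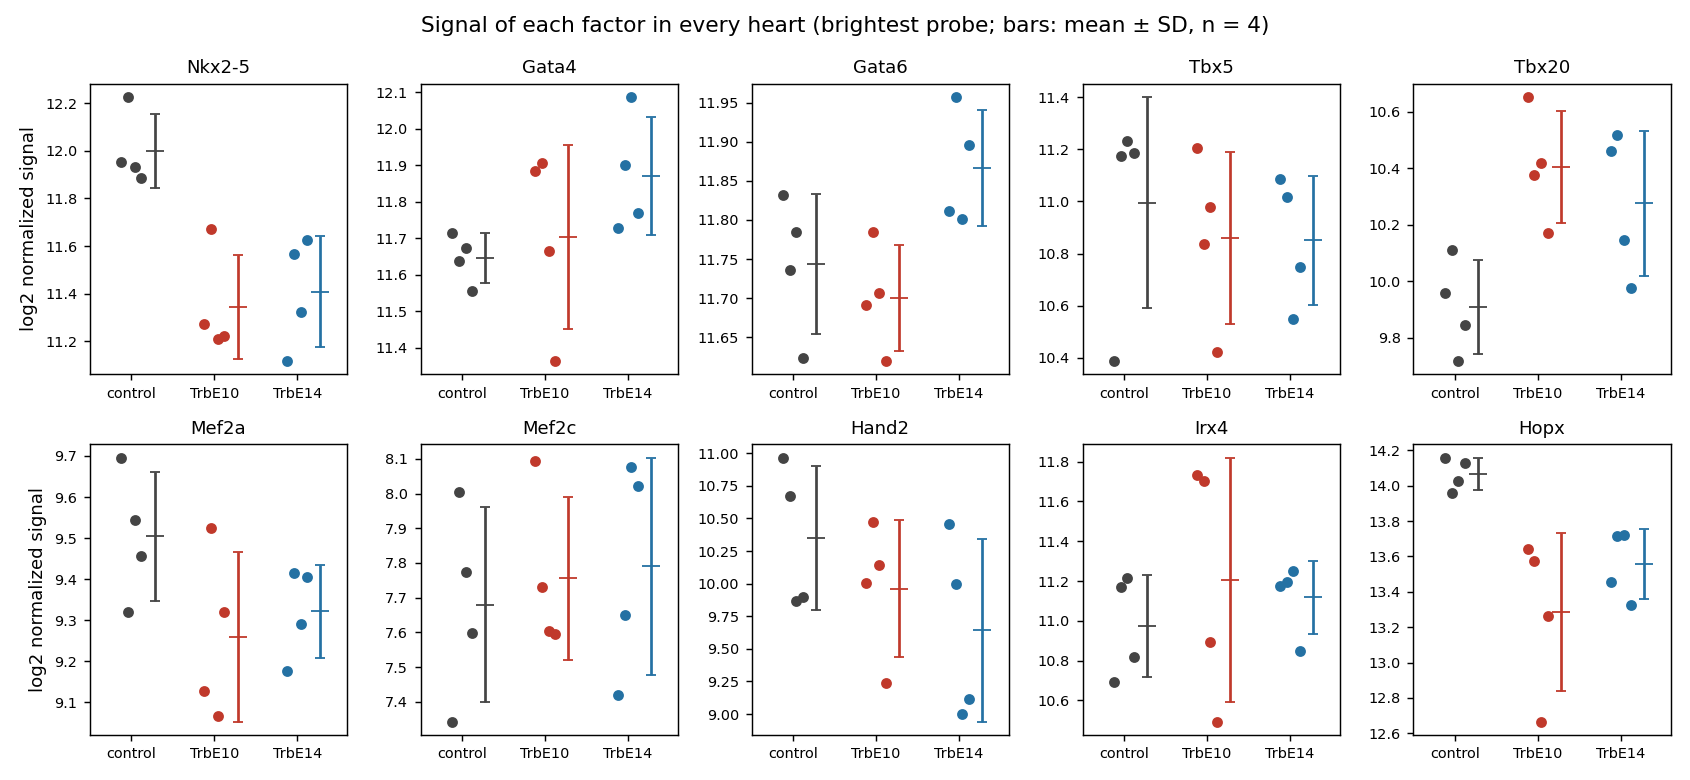
Normalized log2 signal (vertical axis) of the brightest probe of each of the 10 factors in every heart, by group (horizontal axis); each point is 1 heart, and bars are the mean ± SD of 4 hearts. Nkx2-5 and Hopx lie below all control hearts in both mutants, Tbx20 lies above them in TrbE10 hearts, and the vertical axes differ between panels and do not start at 0.

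Nkx2-5, the deleted gene, was measured first as a check of the labels. Its normalized signal was 3968, 4794, 3905 and 3788 in the control hearts. It was 2477, 3259, 2370 and 2387 in the TrbE10 hearts, and 2221, 3031, 2561 and 3159 in the TrbE14 hearts. All 8 mutant hearts lay below the lowest control heart, and none was near background. TrbE10 replicate 2 stood above the other 3 TrbE10 hearts. The SD of the log2 signal was 0.15 in control, 0.22 in TrbE10 and 0.23 in TrbE14 hearts (n = 4 each). In TrbE10 hearts Nkx2-5 fell by 0.66 on the log2 scale (SE 0.14, limma adjusted p = 0.0459), a change of -36.5%. This call lies just under the threshold: with 1 array left out in turn the adjusted p ranged from 0.0158 to 0.132, and it held in 2 of 12 such fits, those without TrbE10 replicate 2 and without TrbE14 replicate 1. In TrbE14 hearts the log2 difference was -0.59 (95% interval -0.91 to -0.28, limma adjusted p = 0.106), a change of -33.7% that did not pass. Each exact two-sided permutation test of Nkx2-5 against control gave p = 0.0286, the smallest that 4 against 4 arrays allow. The mutants differed from each other in Nkx2-5 by -0.06 (95% interval -0.38 to 0.25, limma adjusted p = 0.977).

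**Figure D2:**
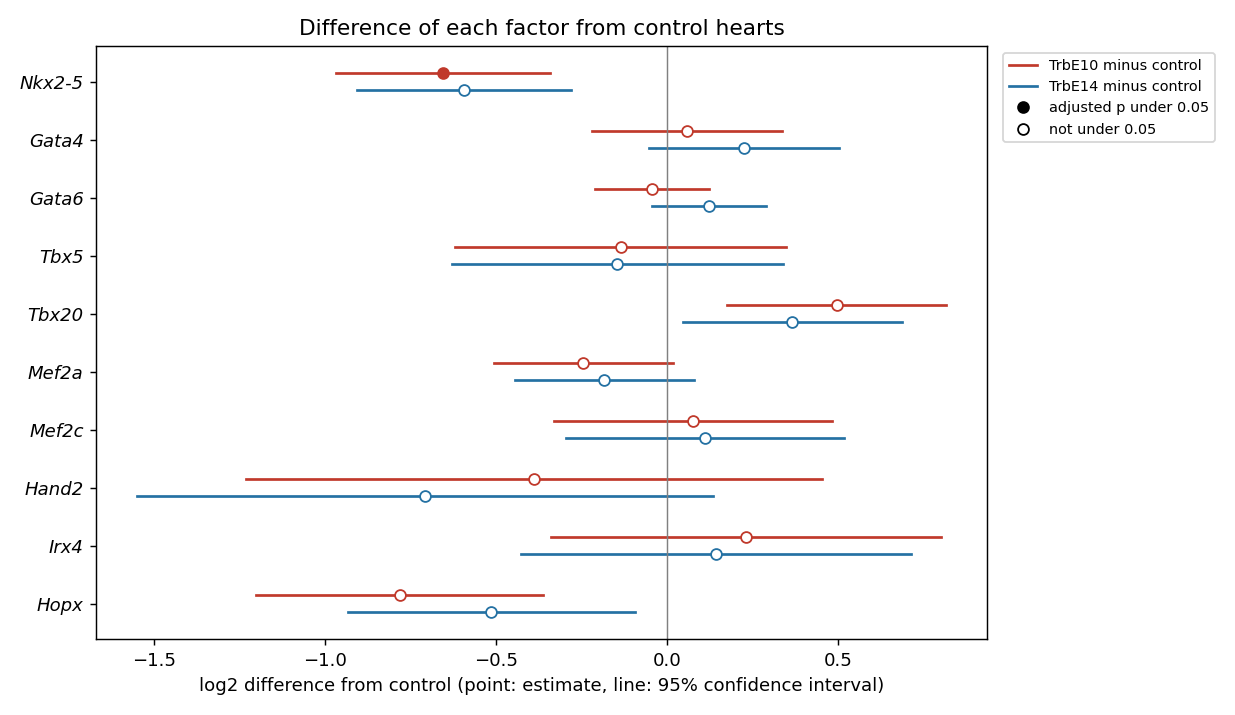
Log2 difference from control (horizontal axis) of each factor's brightest probe in TrbE10 (red) and TrbE14 (blue) hearts, with 95% confidence intervals as lines; filled points have an adjusted p under 0.05. The 1 filled point is Nkx2-5 in TrbE10 hearts at -0.66, and the intervals of Nkx2-5, Tbx20 and Hopx lie to one side of 0 in both mutants.

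Hopx encodes a small homeodomain protein that does not bind DNA itself and acts by restraining serum response factor, and it has been described as a target of Nkx2-5. Its brighter probe had signals of 18256, 15943, 16675 and 17923 in the control hearts, and of 12797, 12206, 6497 and 9821 in the TrbE10 hearts. In the TrbE14 hearts it read 11239, 13452, 13522 and 10248. No mutant heart reached the lowest control heart, and TrbE10 replicate 3 was the lowest of all 12. The log2 difference was -0.78 in TrbE10 (95% interval -1.20 to -0.36, limma adjusted p = 0.0681) and -0.51 in TrbE14 hearts (95% interval -0.93 to -0.09, limma adjusted p = 0.283), so neither passed. The second Hopx probe read from 9366 to 12139 in the control hearts, against 4222 to 7478 (TrbE10) and 6083 to 8099 (TrbE14). Its log2 differences were -0.74 and -0.58, again with no overlap and with limma adjusted p of 0.0670 and 0.215. With sex as a covariate this second probe passed in TrbE10 hearts (log2 difference -0.81, limma adjusted p = 0.0292). Without TrbE10 replicate 2 the brighter probe passed in TrbE10 hearts (log2 difference -0.88, limma adjusted p = 0.0478). The 2 probes share their listed transcripts, so they are not independent measurements of the gene.

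Promoter windows are shown for Hopx because it and Nkx2-5 were the members lower in every mutant heart. In the RefSeq promoter table (GRCm38.p6), 250 bases before a start were searched on both strands for AAGTG, the core of the Nkx2-5 site, and for the longer Nkx2-5 element (NKE) that contains this core. The other motifs searched were the GATA motif AGATAA, the T-box motif AGGTGT and the MEF2 box. Windows were held for 7 of the 10 genes, 10 windows in all. AAGTG was in 5 of these 10, belonging to Mef2c, Hand2 and Hopx, beside 40.7% of all 32851 windows. The NKE was in 0 of 10 (10.1% of all windows), AGATAA in 1 (Hand2, 9.99%), AGGTGT in 1 (Mef2c, 11.8%) and the MEF2 box in 0 (3.2%). The windows of Nkx2-5 and Tbx20 held none of these letters. Of the 2 Hopx windows, the first below holds AAGTG at 2 places, set in capitals, and the second holds none:
Hopx window at chr5:77095268-77095517 (minus strand): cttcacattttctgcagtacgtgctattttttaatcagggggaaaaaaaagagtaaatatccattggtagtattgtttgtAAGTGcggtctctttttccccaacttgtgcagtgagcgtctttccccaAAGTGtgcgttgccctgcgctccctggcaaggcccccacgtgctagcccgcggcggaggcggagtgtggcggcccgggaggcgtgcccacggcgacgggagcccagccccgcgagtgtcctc
Hopx window at chr5:77115124-77115373 (minus strand): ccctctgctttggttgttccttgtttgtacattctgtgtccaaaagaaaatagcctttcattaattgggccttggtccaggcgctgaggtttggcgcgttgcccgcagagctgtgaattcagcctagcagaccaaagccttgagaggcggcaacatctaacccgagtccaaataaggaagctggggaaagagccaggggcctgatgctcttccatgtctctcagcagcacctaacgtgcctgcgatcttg
A match of letters is a description and not a binding site.

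Tbx20 is a T-box factor of heart muscle and of the endocardium. Its 5′ probe read 74.3, 73.0, 72.8 and 75.1 in the control hearts. It read 160.4, 125, 209 and 217 in the TrbE10 hearts, and 122, 152, 252 and 214 in the TrbE14 hearts. The 4 controls lay within a span of a few units, and all 8 mutant hearts lay above them. The signal of the 5′ probe rose in both mutants, by 1.23 in TrbE10 (SE 0.23, limma adjusted p = 0.0237) and by 1.27 in TrbE14 hearts (SE 0.23, limma adjusted p = 0.0341) on the log2 scale, or 2.35-fold and 2.41-fold. With 1 array left out in turn, this probe passed in 5 of 12 fits in TrbE10 hearts and in 4 of 12 in TrbE14 hearts. The log2 difference then lay between 1.13 and 1.39 in TrbE10 and between 1.0996 and 1.45 in TrbE14 hearts. The call was lost in TrbE10 hearts without any 1 of the 4 control arrays or of TrbE10 replicates 1, 3 and 4. It was lost in TrbE14 hearts without any 1 of the 4 control arrays, of TrbE14 replicates 2, 3 and 4 or of TrbE10 replicate 1. With normexp background correction the differences of this probe were smaller, at 0.80 and 0.84 (limma adjusted p = 0.0275 and 0.0356).

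The middle probe of Tbx20 read 25.3, 26.3, 26.0 and 16.5 in the control hearts, none of them well above background. It was above background in all 8 mutant hearts, at 101, 45.8, 142 and 118 in TrbE10 and at 60.4, 78.9, 149.8 and 58.6 in TrbE14 hearts. A fold change against such a group is given as a lower bound that holds for this normalization only. It was computed against the higher of the probe's own control signal and the lowest signal called well above background on the same array. On this scale the signal in TrbE10 hearts was higher than control by at least 3.56-fold (limma adjusted p = 0.0237). For TrbE14 the bound was at least 3.05-fold higher (limma adjusted p = 0.0640). The probe met the background filter through the mutant groups alone, so its adjusted p is no support for the difference. It did not meet the filter on 9 of 12 arrays, and with no filter its adjusted p in TrbE10 hearts was 0.0704 (limma). With normexp the fitted log2 differences of this probe were 0.78 and 0.72, and from the authors' own normalized values 1.51 and 1.21, below these bounds. With 1 array left out in turn it passed in 6 of 12 fits in TrbE10 hearts, those without control replicate 2, TrbE10 replicate 2 or any 1 of the TrbE14 arrays, and in TrbE14 hearts in the 1 fit without TrbE10 replicate 2.

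The 3′ probe of Tbx20, the brightest, moved less. It read 996, 1107, 842 and 920.2 in the control hearts, 1609.9, 1329.6, 1369 and 1153 in the TrbE10 hearts, and 1410.1, 1466, 1133 and 1007 in the TrbE14 hearts. All 4 TrbE10 hearts lay above the controls, while TrbE14 replicate 4 lay among them. Its log2 difference was 0.50 in TrbE10 (95% interval 0.18 to 0.82, limma adjusted p = 0.121) and 0.37 in TrbE14 hearts (95% interval 0.05 to 0.69, limma adjusted p = 0.311), so neither passed. Taking the median over the 3 probes in place of the brightest gives the values of the 5′ probe, and Tbx20 then passed in both mutants (limma adjusted p = 0.0199 and 0.0288). Whether the 3 probes differ from each other in their change was not tested.

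**Figure D3:**
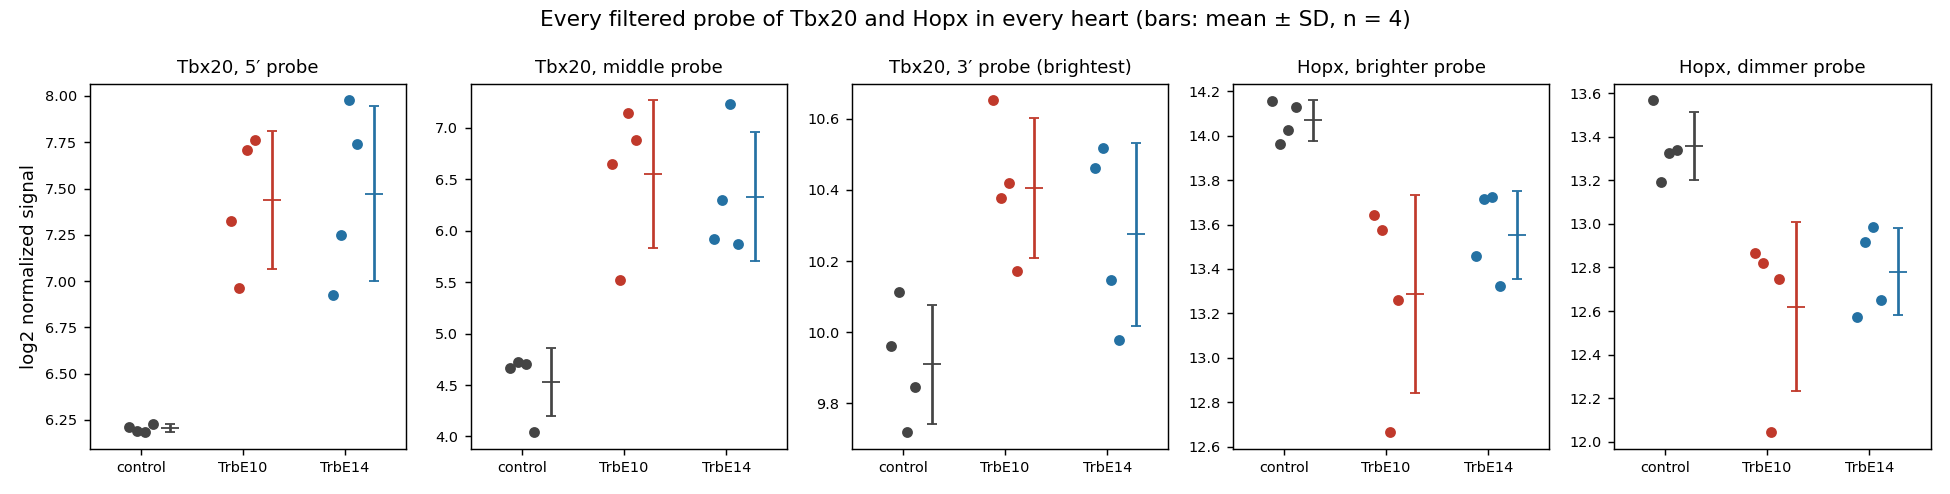
Normalized log2 signal (vertical axis) of the 3 Tbx20 probes and the 2 Hopx probes in every heart, by group (horizontal axis); each point is 1 heart, and bars are the mean ± SD of 4 hearts. The 5′ and middle Tbx20 probes separate all mutant from all control hearts, the 3′ probe overlaps in TrbE14 hearts, and both Hopx probes lie lower in all mutant hearts; the vertical axes differ and do not start at 0.

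Markers of other cell types were read beside these differences, and some of them passed the test, mostly in TrbE10 hearts. Over all genes, 1.93% passed in TrbE10 and 0.66% in TrbE14 hearts. Of 7 endothelial markers, 0 passed in either mutant, and in each mutant 6 were higher than control and 1 lower. Their median log2 difference was 0.14 in TrbE10 and 0.17 in TrbE14 hearts. The summed endothelial signal was 16229 to 16848 in control, 18057 to 18797 in TrbE10 and 17219 to 20189 in TrbE14 hearts. The endocardial markers Npr3, Plvap and Eng had log2 differences above 0 in both mutants, with a summed signal of 3784 to 4681 in the control hearts, against 4947 to 8240 (TrbE10) and 6174 to 7211 (TrbE14), and 2 of the 3 passed the test in TrbE10 hearts. The 7 macrophage markers summed to 8943 to 10802 in the control hearts, against 16051 to 19079 (TrbE10) and 14228 to 15464 (TrbE14), and 4 passed in TrbE10 and 1 in TrbE14 hearts. Among the 4 was Fcgr1, which was not above background in any control heart. It met the background filter through the mutant groups alone, so its pass is no support for a difference. The 7 fibroblast markers summed to 68153 to 76059 in the control hearts, against 85868 to 102744 (TrbE10) and 90947 to 106025 (TrbE14), with 1 of 7 passing in each mutant. The 4 atrial muscle markers ranged from 4445 to 35153 in the control hearts, against 15160 to 35853 (TrbE10) and 17847 to 34645 (TrbE14), with control replicate 3 as the high control. Of the 4, Sln and Dkk3 passed in TrbE10 hearts, and with TrbE14 none did (limma adjusted p = 0.0511 for Sln). Myl7 and Myl4, the other atrial markers, had log2 differences of -0.12 and -0.09 in TrbE10 and of -0.00056 and 0.09 in TrbE14 hearts. The 4 smooth muscle markers had log2 differences of -0.06 to 0.69 in TrbE10 and of 0.63 to 0.83 in TrbE14 hearts, and 0 of 4 passed by limma in either. Their summed signal was 16775 to 31544 in control, 21596 to 47162 in TrbE10 and 25887 to 50551 in TrbE14 samples. The parts of these cell types in the Tbx20, Hopx and Nkx2-5 differences were not tested.

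Gata4 and Gata6 are zinc finger factors that bind next to Nkx2-5 on cardiac promoters. Gata4 ranged from 3011 to 3364 in the control hearts, against 2636 to 3837 (TrbE10) and 3394 to 4353 (TrbE14). All 4 TrbE14 hearts lay just above the highest control, with a log2 difference of 0.23 (95% interval -0.05 to 0.50, limma adjusted p = 0.449). In TrbE10 hearts Gata4 differed by 0.06 (95% interval -0.22 to 0.34), a value whose sign turned under scaling to the 75th percentile. Gata6 ranged from 3155 to 3645 in the control hearts, against 3147 to 3529 (TrbE10) and 3569 to 3977 (TrbE14). Its log2 differences from control were -0.04 in TrbE10 (95% interval -0.21 to 0.12) and 0.12 in TrbE14 hearts (95% interval -0.04 to 0.29), the narrowest intervals among the 10 members.

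Tbx5, a T-box factor that acts with Nkx2-5 and Gata4 in septation and conduction, ranged from 1340 to 2407 in the control hearts, against 1371 to 2363 (TrbE10) and 1497 to 2175 (TrbE14). The groups overlapped almost wholly, with log2 differences of -0.14 and -0.15 (95% intervals -0.62 to 0.35 and -0.63 to 0.34). Control replicate 1 was the low heart in its group. Mef2a and Mef2c are MADS-box factors of muscle differentiation. The brightest Mef2a probe ranged from 639 to 829.5 in the control hearts, against 536 to 736 (TrbE10) and 578 to 682 (TrbE14), with log2 differences of -0.24 (95% interval -0.51 to 0.02) and -0.18 (95% interval -0.44 to 0.08). A second Mef2a probe gave 0.08 and -0.01, and the last was not above background on any array and did not pass the filter. Mef2c ranged from 162 to 257 in the control hearts, against 193 to 273 (TrbE10) and 171 to 269.9 (TrbE14), with log2 differences of 0.08 and 0.11 (95% intervals -0.33 to 0.48 and -0.30 to 0.52).

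Hand2, a basic helix-loop-helix factor of the second heart field, had a wide spread. It ranged from 935 to 2001 in the control hearts, against 603 to 1418 (TrbE10) and 513 to 1403 (TrbE14). Within every group the highest heart read over 2 times the lowest, and the log2 differences of -0.39 and -0.71 had intervals that crossed 0 (-1.23 to 0.45 and -1.55 to 0.13). Irx4, an Iroquois homeobox factor that marks ventricular muscle, ranged from 1655 to 2378 in control and from 1845 to 2440 in TrbE14 hearts. In TrbE10 hearts it ranged from 1441 to 3404, with 2 hearts above and 1 below all controls. Its log2 differences were 0.23 and 0.14 (95% intervals -0.34 to 0.80 and -0.43 to 0.71). None of these 7 members passed in either mutant, and these intervals give the sizes that the design leaves possible.

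The mutants were also compared with each other, to ask whether these factors differed between early and later deletion. The extent of the deletion differed along with its time, so time and extent cannot be told apart. By the brightest probe, 0 of 10 members passed (limma), as did 0 of all 18021 genes (0%), and 0 of the 10 members had an unadjusted p under 0.05 against 5.96% of all genes. The member nearest to it was Gata6, whose log2 difference of TrbE10 from TrbE14 was -0.17 (95% interval -0.33 to 0.00153, limma adjusted p = 0.870). Gata6 was also the 1 member without overlap between the mutants, beside 3.37% of all genes. Hopx differed by -0.27 (95% interval -0.69 to 0.15), Tbx20 by 0.13 (95% interval -0.19 to 0.45) on its 3′ probe and by -0.03 (95% interval -0.54 to 0.47) on its 5′ probe. The 8 arrays of this comparison lay on 2 slides, 1 for each mutant, so slide and mutant cannot be told apart.

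Around the 10 members, 3 lists of related genes held 50 names, of which 46 were measured. Of the 46, 5 passed in TrbE10 and 3 in TrbE14 hearts, each with a signal above control, beside 1.93% and 0.66% of all genes. Both counts include Bmp10 and that of TrbE10 also Tbx18, whose probes met the background filter through the mutant groups alone. With no filter, 3 passed in TrbE10 and 3 in TrbE14 hearts. These lists too were drawn up with earlier results of these data known. Among 21 measured other cardiac transcription factors, Hey1 rose in both mutants and Tbx18 in TrbE10 hearts. Hey1, a Notch target that represses chamber muscle genes, read 604 to 828 in control hearts, against 1120 to 1497 (TrbE10) and 1436 to 1667 (TrbE14). Its log2 differences were 0.88 and 1.09 (limma adjusted p = 0.00398 and 0.00161). Tbx18, a T-box factor of the epicardium and sinus node, differed by 1.40 in TrbE10 hearts (limma adjusted p = 0.0292), and 2 of 4 control hearts were above background for it. Its probe thus met the background filter through the mutant groups alone, so the adjusted p is no support for the difference. The epicardial markers that could be measured, Msln and Wt1 (2 of 3), had log2 differences of 0.97 and 1.22 in TrbE10 and of 0.89 and 0.93 in TrbE14 hearts, and neither passed (limma). Their summed signal was 391 to 876 in control, 718 to 1912 in TrbE10 and 680.2 to 1498 in TrbE14 samples, and their part in the Tbx18 difference was not tested. Myocd, a coactivator of serum response factor, had log2 differences of -0.37 and -0.39 (95% intervals -0.80 to 0.06 and -0.82 to 0.04) and did not pass. Of the 10 cofactors, which include the chromatin factors Smyd1 and Smarcd3, 0 passed by limma, and their log2 differences lay between -0.27 and 0.15.

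Among 15 described targets of Nkx2-5, 3 passed in TrbE10 and 2 in TrbE14 hearts, all higher, beside 1.93% and 0.66% of all genes. Both counts include Bmp10, which met the background filter through the mutant groups alone. The other 12 and 13 did not pass, and the list medians were 0.003 and 0.04 on the log2 scale. In TrbE10 hearts 8 of the 15 were higher than control and 7 lower, and in TrbE14 hearts 10 and 5. Ankrd1, a stress-responsive nuclear and sarcomeric protein, ranged from 22158 to 31490 in the control hearts, against 42013 to 57524 (TrbE10) and 43527 to 51637 (TrbE14). It rose by 0.99 and 0.87 on the log2 scale (limma adjusted p = 0.00396 and 0.0135). Bmp10, a growth factor of embryonic trabeculae and of the adult atrium, was above background in 0 of 4 control and in all 8 mutant hearts. By the bound used for the middle Tbx20 probe it lay at least 4.56-fold (TrbE10) and at least 5.17-fold (TrbE14) above control (limma adjusted p = 2.53e-04 and 2.82e-04). This bound too holds for this normalization only. Bmp10 met the filter through the mutant groups alone, and it passed in both mutants with no filter. Id2, an inhibitor of basic helix-loop-helix factors that is needed in the conduction system, rose by 1.19 in TrbE10 hearts (limma adjusted p = 0.0358). It read 338 to 380 in the control hearts, against 634 to 1047 (TrbE10) and 427 to 910 (TrbE14). All 4 TrbE14 hearts lay above the controls, beside 10.1% of all genes without overlap in either direction, but the TrbE14 difference did not pass. Nppa, the atrial natriuretic peptide, ranged from 7779 to 33716 in the control hearts, against 26949 to 127229 (TrbE10) and 43910 to 72869 (TrbE14). Its log2 differences of 2.07 and 1.65 did not pass (limma adjusted p = 0.0860 and 0.240), nor did those of Nppb, at 0.52 and -0.19. Gja5, whose locus drives the Cre and is therefore altered in the mutants, had log2 differences of -0.64 and -0.47 (95% intervals -1.44 to 0.15 and -1.27 to 0.33). Beside Bmp10 and Nppa, which atrial muscle also expresses, the atrial markers Sln and Myl7 are given. Sln ranged from 381 to 5696 in the control hearts, against 11884 to 21902 (TrbE10) and 10667 to 14933 (TrbE14), while Myl7 ranged from 410.3 to 4499 in the control hearts, against 275 to 2323 (TrbE10) and 524 to 2954 (TrbE14). Of 4 Purkinje fibre markers only 1, Cacna1g, was measurable. Its log2 differences were -0.55 in TrbE10 (95% interval -0.94 to -0.15) and -0.43 in TrbE14 hearts (95% interval -0.82 to -0.04). Neither passed (limma adjusted p = 0.160 and 0.332). The part of atrial tissue in the Bmp10 and Nppa differences was not tested.

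**Figure D4:**
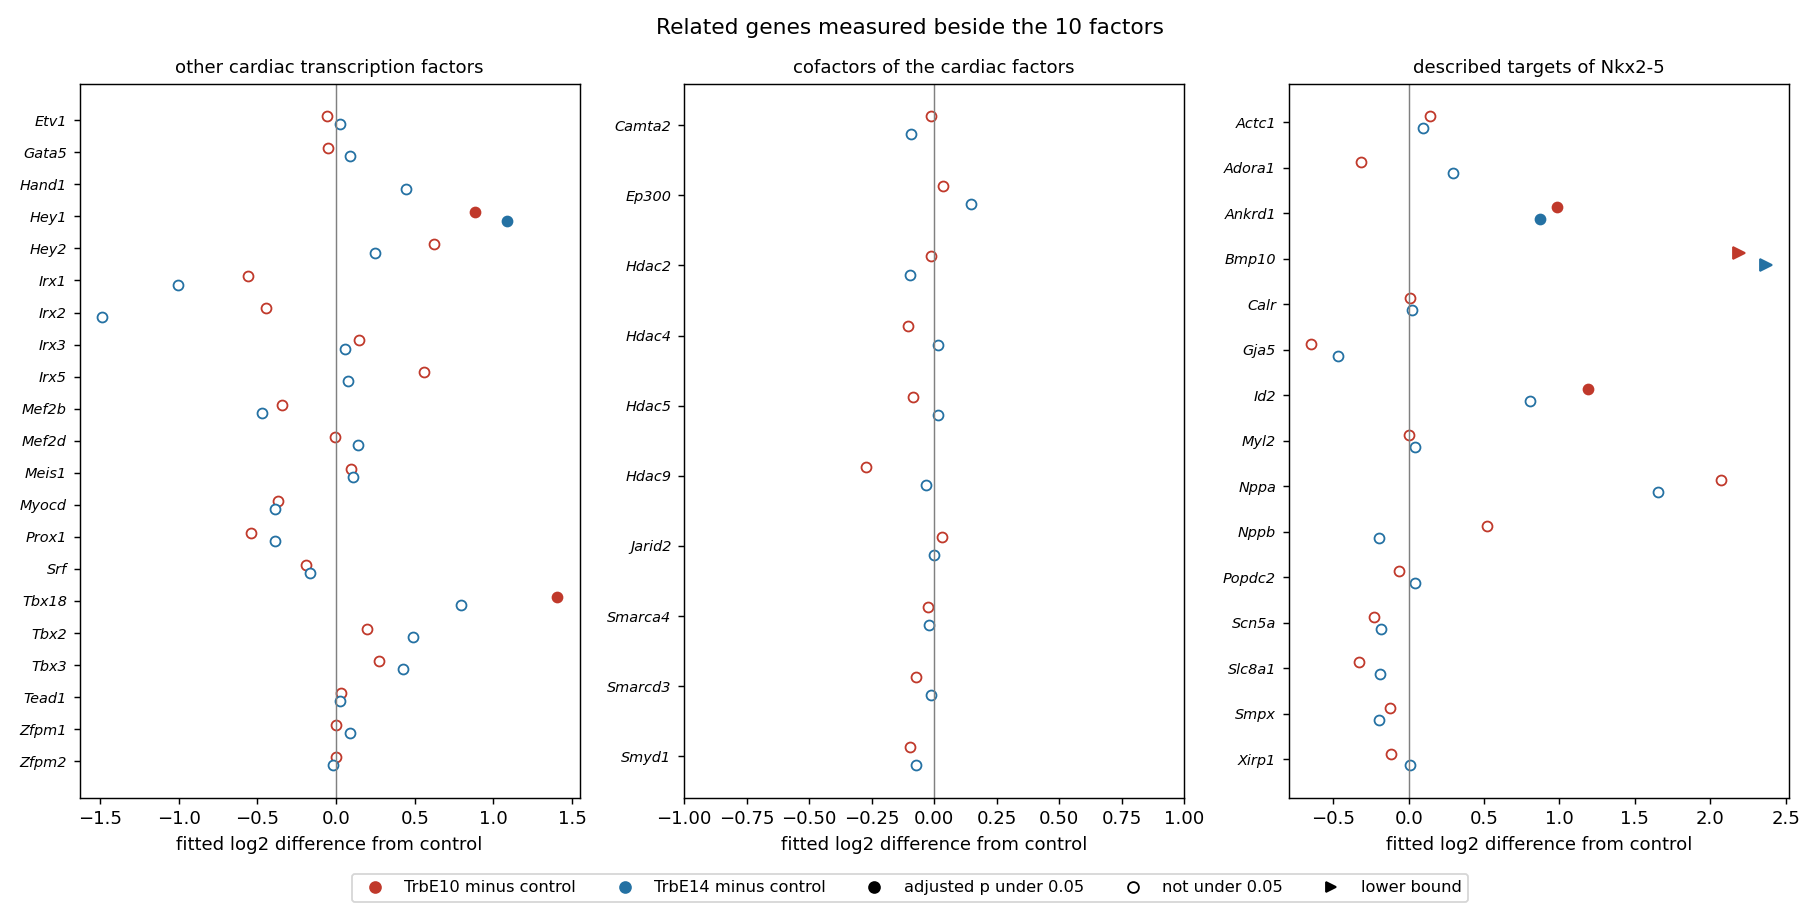
Fitted log2 difference from control (horizontal axis) for the measured genes of 3 lists around the 10 factors, with TrbE10 in red and TrbE14 in blue; filled marks have an adjusted p under 0.05, and triangles are lower bounds for a gene not above background in any control heart. Hey1, Ankrd1 and Bmp10 are filled in both mutants, Tbx18 and Id2 in TrbE10 only, and the difference between the mutants did not pass for any of them; Hand1 in TrbE10 hearts is left out, since 0 of 4 hearts there and 1 of 4 control hearts were above background.

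How the members varied together was described over the deviations of the 12 arrays from their group means, which leaves out the difference between groups. Among members, the highest correlations were between Gata4 and Irx4 (r = 0.79) and between Hand2 and Tbx20 (r = 0.76). Nkx2-5 had r = 0.59 with Gata6, 0.47 with Mef2a, 0.21 with Hopx and -0.01 with Tbx20. Over all genes the r with Nkx2-5 had an SD of 0.32, and that with Tbx20 an SD of 0.42. The genes most like Nkx2-5 were Paip2 (r = 0.95), Magix (0.92), Grpel1 (0.92), Haus7 (0.91) and Pnpla8 (0.90), and the named genes least like it were Ccdc103 (-0.88), Celf4 (-0.87), Cep164 (-0.87) and Lilrb3 (-0.85), after 1 probe without a gene symbol (-0.95). Those most like the 3′ probe of Tbx20 were 1 unnamed intergenic transcript (0.94), Cnnm4 (0.93), Prap1 (0.93), Angpt2 (0.93) and Rbm10 (0.92), and those least like it were 2010305A19Rik (-0.97), Rpf1 (-0.96), Ulk1 (-0.95), Chkb (-0.94) and Tmem66 (-0.94). These are the extremes over 18015 genes in 12 hearts that share slides and a normalization.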

How the data were processed

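RNA of 12 left ventricles was measured on 12 Agilent arrays. The authors deposited scanner intensities (Agilent Feature Extraction 10.5, per the submitters' processing notes), corrected for background and detrended inside each array. They also deposited log2 values that they had quantile normalized and limited to probes over background. Precision is limited by how many arrays there are. Here, the log2 of the processed signal was normalized by quantiles between arrays (limma 3.58.1, run under R 4.3.3, with data.table at version 1.17.8). Control spots were removed, 93 to 131 outlier spots per array left out, and the remaining spots of each probe averaged. A probe was kept when well above background on 75% of the arrays (3 of 4) of any group, leaving 24593 of 55681. The limma fit held 1 mean for each group and took in all 12 arrays (9 residual and 2.19 prior degrees of freedom), with Benjamini-Hochberg adjustment over all probes of a comparison. A gene was read from its brightest filtered probe. Single values were also tested by exact permutation over 70 label orders. In data simulated for TrbE10 against control over 24586 probes, limma recovered 69 of 100 changes of 1 and 94 of 100 of 2 on the log2 scale, with 9 false among 172 calls. Plots used matplotlib 3.10.9 (Python 3.11.15).

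The members and lists were chosen with earlier results of these data known. Named beside the members were genes of 3 lists that passed in either mutant, Nppa, Nppb, Gja5 and Myocd, and the 5 genes at each end of the correlation with Nkx2-5 and Tbx20. The labels do not say that mice of a group came from separate litters, so p-values measure the spread between these mice. The settings varied were the scaling (75th percentile), the background (normexp, offset 50), the filter (9 of 12 arrays, or none), the input (the authors' values), the fit (2 groups alone, sex as covariate, replicate block), the caller (SAM, false discovery rate 5%), the median over probes, and each array left out. Those for the probes that are not the brightest were chosen after seeing the data.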

Additional observations from a re-analysis of the deposited data

Results flagged for a closer look

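In 6 of 42 sets of 4 hearts (14 probes in 3 groups), 1 heart stood far from the other 3, where chance gives about 1 in 20. The measure is the gap to the nearest heart divided by the whole range on the log2 scale, set against Dixon's critical value for 4 values. For Nkx2-5, TrbE10 replicate 2 read 3259 against 2370 to 2477 in the other 3 (ratio 0.861). For the second Hopx probe, TrbE10 replicate 3 read 4222 against 6875 to 7478 (0.853). For Tbx5, control replicate 1 read 1340 against 2314 to 2407 (0.933). For the second Mef2a probe, control replicate 1 read 176 against 134 to 136 (0.937) and TrbE10 replicate 4 read 124 against 161 to 167 (0.872). For the middle Tbx20 probe, control replicate 4 read 16.5 against 25.3 to 26.3 (0.915), all 4 of them not well above background.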

How the results depend on the processing

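Nkx2-5 and Hopx were lower and Tbx20 higher than control in both mutants, on all their filtered probes, under every setting run. The count of members called in TrbE10 hearts by the brightest probe (1) became 0 with no filter, with only the 2 groups in the fit and by SAM, 2 with the median over probes, and 0 to 2 with an array left out. In TrbE14 hearts it (0) became 1 with the median over probes and stayed at 0 with each array left out. Counting any probe, the 2 members in TrbE10 hearts became 0 with no filter, 1 with only the 2 groups in the fit and by SAM, 3 with sex as a covariate (the second Hopx probe passed), and 0 to 3 with an array left out. The 1 member in TrbE14 hearts became 0 with no filter, with only the 2 groups in the fit and with sex as a covariate, and 0 to 1 with an array left out. The related genes called fell from 5 to 3 in TrbE10 hearts with no filter. Fewer or more probes tested change the adjustment, and the cause of the other shifts was not tested. Sign changes concerned differences near 0. Gata4 in TrbE10 hearts became -0.0129 and Tbx5 between mutants -0.00733 under 75th percentile scaling, Tbx5 between mutants -0.0415 under normexp, Tbx5 in TrbE14 hearts 0.12 and, between mutants, Tbx5 -0.12, Mef2a 0.00449 and the 5′ Tbx20 probe 0.00611 with sex as a covariate, and Tbx20 -0.0339 and Mef2a 0.0146 between mutants with the median over probes. With an array left out, log2 differences from control crossed 0 for Gata4 (-0.00781 to 0.173), Tbx5 (-0.338 to 0.0113) and Mef2c (-0.0374 to 0.184) in TrbE10 and for Mef2c (-0.00144 to 0.235) in TrbE14 hearts. Between mutants they did so for Nkx2-5 (-0.172 to 0.00889), Tbx5 (-0.106 to 0.156), Mef2a (-0.150 to 0.00226), Mef2c (-0.160 to 0.0593), Irx4 (-0.0870 to 0.326), the 5′ Tbx20 probe (-0.216 to 0.134) and the second Hopx probe (-0.243 to 0.0324). Arrays of the same replicate number had correlations of deviations from -0.24 to 0.48, above 0.1 in 3 of 12 pairs. All 3 were pairs of TrbE14 with TrbE10, at 0.37, 0.31 and 0.48. Arrays of unlike number had correlations from -0.52 to 0.40, and 6 of 12 arrays correlated best with their own number. Whether the numbers pair the mutant hearts is not known. With the number as a replicate block, 1, 0 and 0 members were called in the 3 comparisons. Dim probes, such as the middle Tbx20 probe, limit what can be measured.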

Other observations

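Irx1 and Irx2 are Iroquois homeobox genes related to Irx4. In TrbE14 hearts they had the lowest log2 differences of the other cardiac transcription factors. These were -1.01 (95% interval -1.61 to -0.40) and -1.48 (95% interval -2.62 to -0.35). All 4 TrbE14 hearts lay below the controls for both, beside 10.1% of all genes without overlap in either direction. Neither passed the adjusted threshold. In TrbE10 hearts their log2 differences were -0.56 and -0.44, and these hearts overlapped the controls, while Irx3 and Irx5 had 0.06 and 0.08 in TrbE14 hearts. These genes were singled out after their values had been seen.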
